A study of Mus musculus with 10 samples.

Results

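Gene expression was compared between dividing T cell precursors and dividing B cell precursors of the mouse. The T lineage was represented by 2 libraries of cycling CD4+CD8+ thymocytes and the B lineage by 2 libraries of large pre-B cells from bone marrow, which makes 4 of the 10 RNA sequencing libraries of the study. Within each lineage 1 library came from control mice (Dyrk1a flox/flox, Mx1-Cre-) and 1 from conditional knockout mice (Dyrk1a -/-, Mx1-Cre+), called CKO in the labels. All mice were C57bl/6 at 4 weeks of age, and by the series' design text all populations of a genotype were sorted from 1 pool of 2 mice. The 4 libraries were chosen by their labels alone, as the dividing population of each lineage, and the lineages were set against each other within a genotype. The other 4 lymphoid libraries, of quiescent CD4+CD8+ thymocytes and small pre-B cells of both genotypes, served to estimate the spread and to ask whether a lineage difference was the same in resting cells. In the control mice both Dyrk1a alleles carry loxP sites and no Cre is present. Mx1-Cre is driven by an interferon-responsive promoter and is active in many cell types, so the deletion is not restricted to lymphocytes. The thymocytes came from thymus and the pre-B cells from bone marrow, so lineage and tissue cannot be told apart in these data.

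Both populations stand at the same step of lymphocyte development. A thymocyte that has rearranged its T cell receptor beta chain gene assembles a pre-T cell receptor from that chain and the invariant chain pre-T alpha (Ptcra), and a B cell precursor that has rearranged its heavy chain gene assembles a pre-B cell receptor from that chain and the surrogate light chain (Igll1 with Vpreb1 or Vpreb2). Signals from either receptor drive a burst of division, after which the cells become quiescent and rearrange the partner chain. Interleukin-7 sustains the large pre-B cell, while CD4+CD8+ thymocytes have largely switched off its receptor. DYRK1A is a kinase that phosphorylates D-type cyclins and marks them for degradation.

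Sequences upstream of the receptor genes of either lineage are shown first, because these genes had some of the largest differences in the comparison. Each is the 250 bases before the RefSeq transcription start on GRCm38.p6, the build that corresponds to mm10, written 5′ to 3′ on the strand of the gene. Capitals mark matches to any of 10 motifs searched on both strands: CAGCTG and CAGGTG (E-boxes, bound by E proteins), CCCNNGGG (EBF), ATGCAAAT (octamer), CTTTGAN (TCF/LEF), AGATAA (bound by GATA factors), TGTGGT (RUNX), CCGGAAGT (ETS), GAGGAAGT (PU.1, which shares its last 6 letters with the ETS motif) and TTTCCCGC (E2F). The first 3 belong to T lineage genes and the last 3 to B lineage genes.
Ptcra (chr17:46763713-46763962, minus strand): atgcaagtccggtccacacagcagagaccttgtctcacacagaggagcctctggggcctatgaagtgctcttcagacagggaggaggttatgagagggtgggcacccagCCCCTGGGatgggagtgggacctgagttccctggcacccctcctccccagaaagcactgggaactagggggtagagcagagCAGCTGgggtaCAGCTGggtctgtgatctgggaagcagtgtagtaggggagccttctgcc
Cd3d (chr9:44981536-44981785, plus strand): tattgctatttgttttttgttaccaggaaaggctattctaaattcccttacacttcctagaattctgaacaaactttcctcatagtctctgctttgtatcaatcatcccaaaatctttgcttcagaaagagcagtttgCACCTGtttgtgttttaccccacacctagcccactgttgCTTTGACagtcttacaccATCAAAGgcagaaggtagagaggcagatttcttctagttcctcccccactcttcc
Cd3g (chr9:44980432-44980681, minus strand): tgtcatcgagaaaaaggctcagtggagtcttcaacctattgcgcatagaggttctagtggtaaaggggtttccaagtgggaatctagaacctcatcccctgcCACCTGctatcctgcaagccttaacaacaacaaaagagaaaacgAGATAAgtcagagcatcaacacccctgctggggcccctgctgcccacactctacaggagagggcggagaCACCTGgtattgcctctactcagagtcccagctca
Igll1 (chr16:16863986-16864235, minus strand): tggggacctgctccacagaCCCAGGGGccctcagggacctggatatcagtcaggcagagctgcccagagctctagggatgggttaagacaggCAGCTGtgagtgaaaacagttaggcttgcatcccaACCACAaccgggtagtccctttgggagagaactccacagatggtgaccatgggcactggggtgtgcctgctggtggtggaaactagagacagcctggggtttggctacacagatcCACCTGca
Vpreb1 (chr16:16869256-16869505, minus strand): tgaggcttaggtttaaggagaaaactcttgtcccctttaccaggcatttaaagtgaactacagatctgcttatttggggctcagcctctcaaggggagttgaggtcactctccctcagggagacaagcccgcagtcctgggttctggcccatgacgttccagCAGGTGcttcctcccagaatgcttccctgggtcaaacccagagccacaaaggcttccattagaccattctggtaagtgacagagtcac
Vpreb3 (chr10:75948050-75948299, plus strand): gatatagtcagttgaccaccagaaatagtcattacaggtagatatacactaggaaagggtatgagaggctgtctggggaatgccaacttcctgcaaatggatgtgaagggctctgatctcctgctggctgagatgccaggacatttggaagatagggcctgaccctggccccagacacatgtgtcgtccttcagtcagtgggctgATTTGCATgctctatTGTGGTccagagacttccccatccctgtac

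All 6 windows held at least 1 match, and 5 of them held an E-box. The CAGCTG E-box occurred 2 times upstream of Ptcra, the nearer one 44 to 49 bases before the start, and 1 time upstream of Igll1. The CAGGTG E-box, written CACCTG where it lies on the other strand, occurred upstream of Cd3d, Cd3g, Igll1 and Vpreb1. Matches to CCCNNGGG were present upstream of both Ptcra and Igll1, a gene of each lineage. The octamer was found upstream of Vpreb3 alone among these 6. Such letters are common: of the 32851 mouse promoters in the table, CAGGTG was present in 17.2%, CAGCTG in 13.0%, CCCNNGGG in 11.8%, TGTGGT in 14.0%, CTTTGAN in 13.8%, AGATAA in 9.99% and the octamer in 1.6%. A match describes the sequence and does not show binding. Igll1 and Vpreb1 lie on the minus strand of the same stretch of chromosome 16, and Cd3d and Cd3g are transcribed away from each other with starts 1355 bases apart.

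Values are deposited FPKM, read as fragments per kilobase of transcript scaled to each library, and pairs of values are given control first and CKO-labelled second. FPKM carry no counts, so the depth behind each value is unknown. Every population and genotype had 1 library, so lineages were compared by limma on log2(FPKM + 1) over the 8 lymphoid libraries with population and genotype in the model, and the difference is thymocytes minus large pre-B cells on that scale. A gene was called at a Benjamini-Hochberg adjusted p under 0.05. With 2 libraries on each side no exact permutation test could give a p below 0.33, and both lineages of a genotype came from 1 pool of mice, so the adjusted p-values measure the spread among these libraries and not among animals. Numbers of transcripts per cell and numbers of cells cannot be told apart in bulk RNA.

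The targeted gene did not separate the genotypes. Dyrk1a (chr16:94570010-94695517) stood at 31.2 FPKM in control and 42.3 in CKO-labelled cycling thymocytes, and at 33.2 and 34.4 in large pre-B cells. The deleted exons are not given in the labels and a value for the whole gene need not show their loss. The libraries are therefore called CKO-labelled throughout.

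Lineage markers matched the labels. The 9 T lineage markers other than Rag1 summed to 2151 and 1944 FPKM in cycling thymocytes and to 23.7 and 20.2 in large pre-B cells. The 9 B lineage markers other than Rag1 summed to 5.54 and 2.53 FPKM in thymocytes and to 2605 and 2744 in large pre-B cells. Rag1 is on both lists and is expressed in both lineages. Transcripts of other blood cells were also present in the large pre-B libraries. The 14 granulocyte markers summed to 1116 and 546 FPKM there, against 47.6 and 54.3 in thymocytes, with none of the 14 at 0 in large pre-B cells. The 8 rows of erythroid markers summed to 394 and 215 FPKM against 3.88 and 1.80, the 8 monocyte and macrophage markers to 190 and 73.5 against 12.04 and 19.1, and the 10 cytotoxic and NK markers to 101 and 142 against 51.5 and 65.9. Gzma alone made up 49.2 and 64.5 FPKM of that sum in thymocytes, and the other 9 summed to 91.5 and 100.8 FPKM in large pre-B cells against 2.26 and 1.42 in thymocytes. Plasmacytoid dendritic markers summed to 368 and 483 FPKM in thymocytes and 247 and 259 in large pre-B cells, but Ly6d (255 and 381 FPKM) and Ccr9 (65.0 and 60.1), which thymocytes also express, made up most of the thymocyte sum, while Siglech was at 0.115 and 0 FPKM in thymocytes and 7.99 and 3.76 in large pre-B cells. The remaining lists were progenitors, at 4.70 and 3.16 against 25.6 and 38.6, and stroma, at 36.4 and 44.8 against 31.6 and 28.0. Of the thymic epithelial genes on the stroma list, Foxn1 was listed at 0 in both thymocyte libraries, Krt5 was at 0 and 0.0109 FPKM, Krt8 at 0.0359 and 0.0751 and Psmb11 at 0.029 and 0.0554. Epcam, a general epithelial gene on that list, was at 5.07 and 5.23 FPKM in thymocytes against 0.397 and 0.884 and was called higher there (limma adjusted p = 0.0013). The part of these other cells in the differences reported here was not tested, and their values are repeated beside the groups they touch.

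**Figure D1:**
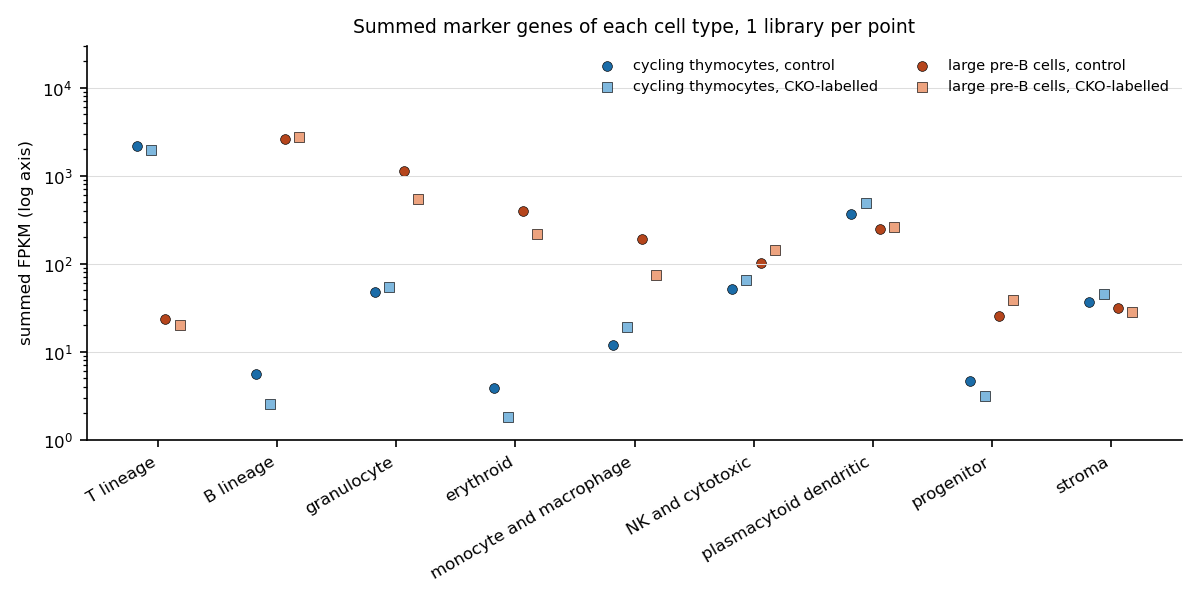
Summed FPKM (log axis) of the marker genes of 9 cell types, with 1 point per library, blue for cycling thymocytes and red-brown for large pre-B cells, circles for control and squares for CKO-labelled. T and B lineage markers (without Rag1) separate the lineages, and granulocyte markers reach 1116 and 546 FPKM in the large pre-B libraries.

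The filter on low values asked for 1 FPKM or more in any 2 of the 4 dividing libraries and left 10671 genes, of which limma called 2772 higher in cycling thymocytes (26.0%) and 2906 higher in large pre-B cells (27.2%). The median difference over all genes was -0.05. The shares of 26.0% and 27.2% are those to set beside each count of called list members below. Many calls were small: 1699 of the genes called higher in thymocytes and 1900 of those called higher in large pre-B cells differed by less than 2-fold in at least 1 genotype. By the rule of size alone, 1077 genes (10.1%) were at least 2-fold higher in thymocytes in both genotypes and 1021 (9.57%) were at least 2-fold higher in large pre-B cells in both. At 8-fold these numbers were 148 and 143. The 2 genotypes ordered the genes alike: across the 10671 genes, which are not independent replicates, the lineage difference in control libraries and that in CKO-labelled libraries had a Pearson r of 0.943, and 5 genes differed by at least 2-fold in opposite directions. Calls made by limma depended on the number of libraries. Leaving out the CKO-labelled thymocytes gave 1763 genes higher in thymocytes and 1707 higher in large pre-B cells, leaving out the control large pre-B cells gave 1680 and 1739, and leaving out the CKO-labelled large pre-B cells gave 1676 and 1524. Of the called genes, 1464 (52.8%) of those higher in thymocytes and 1321 (45.5%) of those higher in large pre-B cells were called in every one of the 4 fits that left out 1 library.

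The largest differences lay in the antigen receptors themselves. The 15 largest differences toward thymocytes included 8 genes of the T cell receptor list, and the 15 largest toward large pre-B cells included 7 genes of the pre-B cell receptor list. All 14 members of the list of T cell receptor complex, coreceptors and costimulators were called higher in thymocytes, with a median difference of 6.55 and with 13 of the 14 calls kept whichever library was left out. The exception was Cd2, an adhesion receptor, at 41.8 and 37.0 FPKM in thymocytes and 14.1 and 5.64 in large pre-B cells, for which leaving out the CKO-labelled thymocytes moved the limma adjusted p to 0.066, leaving out the control large pre-B cells to 0.056 and leaving out the CKO-labelled large pre-B cells to 0.076.

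Among the coreceptors, which bind MHC molecules beside the receptor, Cd8b1 stood at 454 and 368 FPKM in cycling thymocytes and at 0.252 and 0.0388 in large pre-B cells (difference 8.49, SE 0.15, limma adjusted p = 5.4e-06). Cd8a stood at 379 and 348 against 0.283 and 0.0735 FPKM (8.28, SE 0.12). Cd4 stood at 153 and 162 against 1.30 and 0.119 FPKM (6.63, SE 0.47). The lineages did not overlap for any of these 3 genes, and the large pre-B values were near the lower limit of the table. Lack of overlap was common with so few libraries. Of all genes tested, 39.2% were without overlap and higher in thymocytes, and 44.2% were without overlap and higher in large pre-B cells. The CD3 chains, which carry the receptor's signal into the cell, formed a tight group. Cd3e was at 225 and 196 FPKM against 0.0881 and 0.397, Cd3g at 251 and 213 against 0.449 and 0.502, and Cd3d at 132 and 114 against 0.198 and 0.317. The pre-T alpha chain Ptcra, whose upstream sequence is given above, was the lowest of the receptor chains at 15.3 and 8.13 FPKM in cycling thymocytes, while it was at 0.022 and listed at 0 in large pre-B cells (3.59, SE 0.30, limma adjusted p = 0.00041).

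The signalling molecules behind the T cell receptor followed, with 16 of 19 members called higher in thymocytes, none called higher in large pre-B cells and a median of 3.25. Of the 16 calls, 15 were kept in each fit without 1 library, the exception being the kinase Txk. The adaptor Themis, needed for thymocyte selection, was at 86.6 and 86.8 FPKM in thymocytes and at 0.00665 and 0 in large pre-B cells. Lck, the kinase that phosphorylates CD3, was at 495 and 488 FPKM in thymocytes and still measurable at 21.1 and 18.7 in large pre-B cells. Zap70, the kinase recruited to phosphorylated CD3, was at 44.4 and 40.9 against 5.17 and 4.61. In these 3 genes both thymocyte libraries lay above both large pre-B libraries, as they did in 39.2% of all genes tested. The 3 members without a call were Fyn, at 24.4 and 21.5 against 19.4 and 26.2 FPKM, Vav1, at 35.1 and 37.7 against 41.9 and 40.0, and Ubash3a, at 19.3 and 11.9 against 14.3 and 7.98. Fyn and Vav1 encode a kinase and an exchange factor that serve receptors of both lineages.

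In large pre-B cells the counterpart was as steep. Of 14 members of the list of the pre-B and B cell receptor, 13 passed the filter on low values, 12 were called higher in large pre-B cells and the median was -6.87. Vpreb3, a protein that binds nascent immunoglobulin chains, had the largest difference of any ranked gene, at 0.291 and 0.179 FPKM in thymocytes and 730 and 580 in large pre-B cells (-9.04, SE 0.17, limma adjusted p = 5.4e-06). Igll1, the lambda 5 part of the surrogate light chain, was at 0.0309 and 0 FPKM in thymocytes and at 282 and 462 in large pre-B cells (-8.48, SE 0.50, limma adjusted p = 0.00012). Vpreb1 was at 0.499 and 0.146 against 253 and 415 FPKM, and Vpreb2 at 0.206 and 0.103 against 87.0 and 152. In the surrogate light chain genes Igll1, Vpreb1 and Vpreb2 the CKO-labelled large pre-B library was the higher one, whereas in Vpreb3 the control library was. Vpreb1 and Vpreb2 are near-identical copies, and how the authors' counting divided reads between them is uncertain.

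The signal-carrying chains Cd79a and Cd79b stood at 477 and 466 and at 379 and 316 FPKM in large pre-B cells, against 0.789 and 0.816 and 3.58 and 0.929 in thymocytes. Ms4a1, which encodes CD20 and is acquired late, was only at 3.61 and 2.06 FPKM in large pre-B cells and at 0.180 and 0.0302 in thymocytes, and its call was lost when any library other than the CKO-labelled thymocytes was left out (limma adjusted p 0.085 to 0.11). Cd24a was high in both lineages, at 444 and 426 FPKM in thymocytes and 1328 and 989 in large pre-B cells. Cd81, a tetraspanin of the B cell coreceptor that T lineage cells also carry, was the 1 member called the other way, at 87.8 and 133 FPKM against 75.3 and 99.4, with overlapping libraries and a call lost without any library except the control thymocytes (limma adjusted p 0.17 to 0.26).

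**Figure D2:**
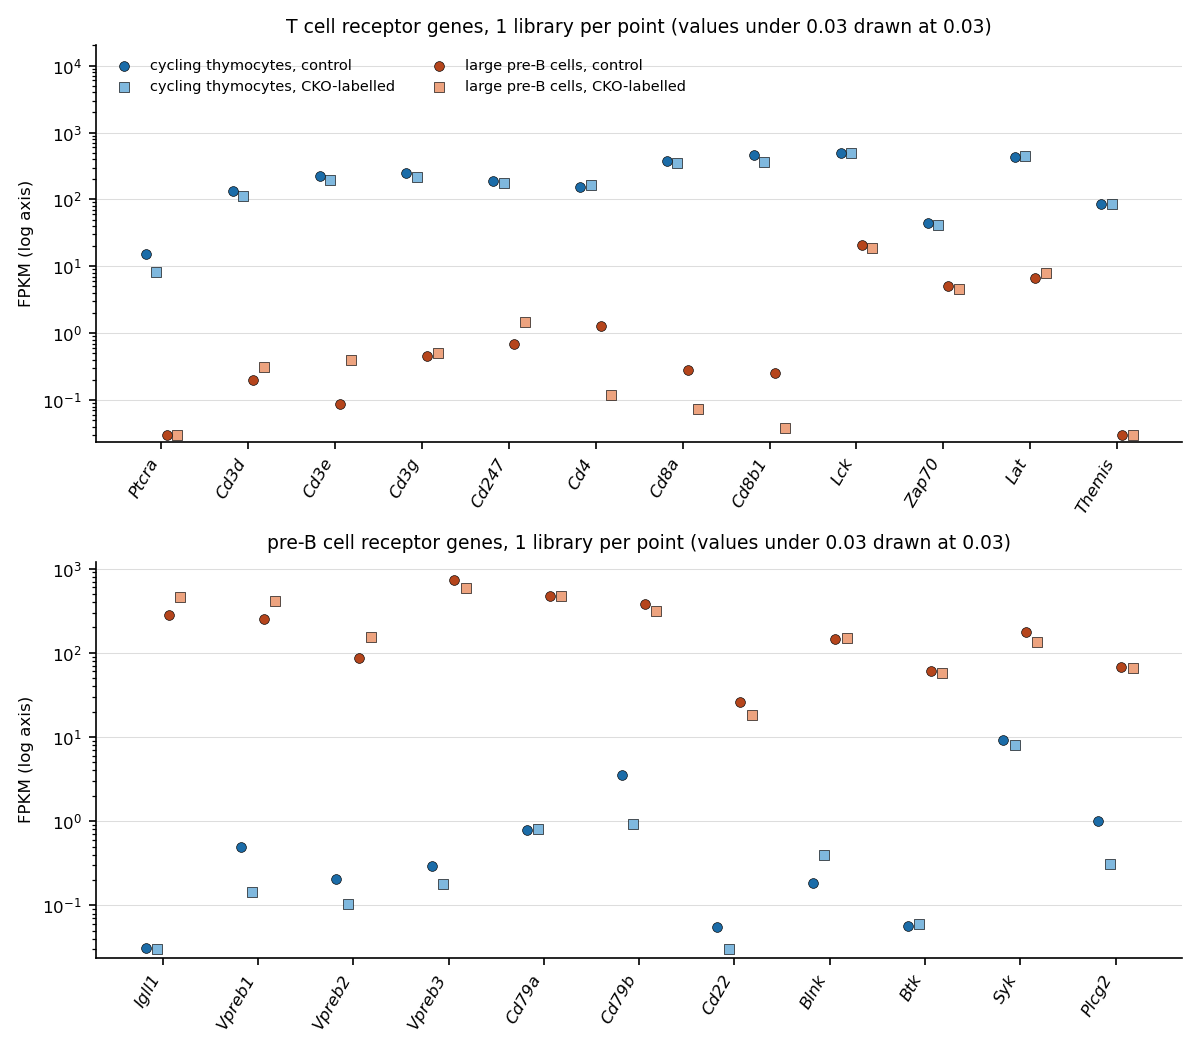
FPKM (log axis) of 12 T cell receptor genes (top) and 11 pre-B cell receptor genes (bottom), with 1 point per library and values under 0.03 drawn at 0.03. Cd8b1 reaches 454 and 368 FPKM in thymocytes and Vpreb3 730 and 580 in large pre-B cells, while Lck and Syk remain measurable in the other lineage.

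Among 13 B cell receptor signalling genes, 11 were called higher in large pre-B cells and none higher in thymocytes (median -4.01). Blnk, the adaptor that links SYK to phospholipase C, was at 0.183 and 0.402 FPKM in thymocytes and at 144 and 149 in large pre-B cells (-6.84, SE 0.13). Btk was at 0.0564 and 0.0606 against 60.2 and 57.0 FPKM. Syk, the B lineage counterpart of Zap70, remained at 9.23 and 8.07 FPKM in thymocytes against 177 and 133 in large pre-B cells. The phosphatase Ptpn6, at 53.7 and 49.9 against 82.3 and 60.1 FPKM, had a small difference of -0.43 whose call was lost in every fit without 1 library (limma adjusted p 0.058 to 0.22). Dapp1 and Bank1 were not called. Lyn, Syk, Plcg2 and Btk are also expressed by myeloid cells, whose markers were present in the large pre-B libraries at the sums given above. Zap70, at 5.17 and 4.61 FPKM in those libraries, is also an NK cell gene, and the NK marker Nkg7 was at 26.0 and 27.5 FPKM there. The part of such cells in these values was not tested.

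Transcription factors of each lineage divided in the same way, with exceptions. Of 16 T cell factors, 13 were called higher in thymocytes, none higher in large pre-B cells, and the median was 2.21. Tcf7, which encodes the Notch-induced factor TCF1, was at 1074 and 1044 FPKM against 4.04 and 3.66 (7.77, SE 0.19, limma adjusted p = 8.0e-06). Bcl11b, a gene required for T lineage commitment, was at 45.8 and 45.6 FPKM against 0.0113 and 0.0113. Lef1, a relative of Tcf7, was not called, at 45.4 and 37.1 FPKM in thymocytes and 54.6 and 59.2 in large pre-B cells. Sox4 and Zbtb7b were not called either. Runx3 was called at 18.5 and 15.01 against 5.70 and 9.78 FPKM, a call lost without the control thymocytes and without either large pre-B library (limma adjusted p 0.11 to 0.27). The call of Nfatc1, at 26.2 and 29.0 against 16.7 and 21.0 FPKM, was lost without the control thymocytes (0.059) and without the control large pre-B cells (0.079).

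Of 18 B cell factors, 13 were called higher in large pre-B cells and 3 higher in thymocytes (median -4.43), and all 16 calls were kept whichever library was left out. Pax5, the commitment factor of the B lineage, was at 0.0214 and 0 FPKM in thymocytes and 86.8 and 98.4 in large pre-B cells. Ebf1, which acts with Pax5, was at 0.0109 and 0.0229 against 80.2 and 99.8. Pou2af1, a coactivator of octamer-bound promoters, was at 2.42 and 2.92 against 447 and 340. None of these overlapped between lineages, and 44.2% of all genes tested were likewise without overlap and higher in large pre-B cells. The 3 members called toward thymocytes were Klf3 (84.9 and 71.0 against 4.05 and 5.89 FPKM), Xbp1 (101 and 95.2 against 35.8 and 36.0) and Cux1 (116 and 117 against 57.8 and 70.2). Foxo1 and Ikzf3 had no call. Sfpi1, the symbol in the files for PU.1, was at 46.3 and 35.1 FPKM and Irf8 at 81.0 and 82.5 in large pre-B cells, and both are also myeloid genes.

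E proteins bind the E-box letters marked in the sequences above, and ID proteins block them. Tcf3, which encodes E2A, was called higher in large pre-B cells at 267 and 238 FPKM against 68.4 and 62.7 in thymocytes (-1.93, SE 0.09, limma adjusted p = 5.6e-05). Tcf12, which encodes HEB, stood the other way at 113 and 129 FPKM in thymocytes against 71.1 and 42.8. That call was lost without the CKO-labelled thymocytes (limma adjusted p 0.16) and without either large pre-B library (0.063 and 0.17). Id3, at 249 and 354 FPKM against 61.1 and 71.2, and Id2, at 35.7 and 58.6 against 10.3 and 13.3, were both called higher in thymocytes. Of 10 members tested in this list, 6 were called higher in thymocytes and 2 higher in large pre-B cells, beside 26.0% and 27.2% of all genes. In every fit without 1 library, 5 of the 8 calls were kept.

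The Notch pathway, which imposes T cell fate, had 7 of 17 members called higher in thymocytes and 5 higher in large pre-B cells (median 0.36), beside 26.0% and 27.2% of all genes, with 8 of the 12 calls kept in every fit without 1 library. Notch1 was at 26.8 and 38.4 FPKM against 8.89 and 13.0 (1.49, SE 0.13, limma adjusted p = 0.00047), and Notch3 at 7.57 and 5.20 against 0.106 and 0.0749. Lfng, a glycosyltransferase that modifies Notch receptors, was higher in large pre-B cells at 14.7 and 28.0 FPKM against 2.44 and 2.44 (-2.63, SE 0.39, limma adjusted p = 0.0029). Hes1, a Notch target, was at 78.5 and 44.0 against 20.2 and 30.8 FPKM and was not called (limma adjusted p = 0.061).

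Cytokine receptor genes separated sharply by subunit. Il7r (chr15:9505788-9530176), the specific chain of the interleukin-7 receptor, was at 0.867 and 0.779 FPKM in thymocytes and at 94.8 and 77.0 in large pre-B cells (-5.57, SE 0.13, limma adjusted p = 7.6e-06). The partner chain Il2rg, shared by several cytokine receptors, was instead higher in thymocytes at 92.1 and 78.7 FPKM against 27.6 and 28.3. Downstream, Stat5a was at 71.8 and 61.2 against 12.2 and 14.4 FPKM, Stat5b at 88.0 and 78.3 against 18.9 and 20.5, and Stat3 at 69.4 and 62.4 against 16.1 and 16.3, all higher in thymocytes. The inhibitors of cytokine signalling were split. Socs1 was at 125 and 124 FPKM in thymocytes against 11.6 and 5.96, and Socs3 at 22.7 and 43.4 against 1.45 and 2.45, whereas Socs2 was at 1.14 and 1.24 against 18.7 and 44.6 in large pre-B cells. Of 20 members, 8 were called higher in thymocytes and 7 higher in large pre-B cells, beside 26.0% and 27.2% of all genes. In every fit without 1 library, 11 of the 15 calls were kept. Kit and Flt3, receptors of early progenitors, were low in large pre-B cells at 4.00 and 5.49 and at 1.88 and 8.89 FPKM, and at 0.786 and 0.420 and at 0.160 and 0.268 in thymocytes. The call of Kit was lost without the CKO-labelled thymocytes and without either large pre-B library (limma adjusted p 0.054 to 0.081), and that of Flt3 in all 4 fits without 1 library (0.0503 to 0.24).

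Of 16 genes of V(D)J recombination, 5 were called higher in thymocytes and 3 higher in large pre-B cells (median 0.02), shares near or below the 26.0% and 27.2% of all genes, and 5 of the 8 calls were kept in every fit without 1 library. Rag1 was at 248 and 321 FPKM in thymocytes and 65.4 and 79.8 in large pre-B cells (1.95, SE 0.23, limma adjusted p = 0.0013). Its partner Rag2 went the other way at 10.97 and 13.6 against 24.2 and 29.0 FPKM (-1.06, SE 0.17, limma adjusted p = 0.0037). Neither gene overlapped between the lineages, and the ratio of Rag1 to Rag2 was far higher in thymocytes in both genotypes. Over all genes tested, 39.2% were without overlap toward thymocytes and 44.2% toward large pre-B cells. Dntt, the terminal transferase that adds bases at junctions, was at 579 and 533 FPKM in thymocytes and at 139 and 403 in large pre-B cells and was not called (limma adjusted p = 0.13). The gap-filling polymerases Polm and Poll were higher in large pre-B cells, at 28.7 and 13.8 against 3.19 and 2.73 FPKM and at 6.64 and 8.20 against 0.358 and 0.443. Of 7 end-joining genes, 3 were called, all higher in thymocytes and none by more than 1 on the log2 scale.

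Of 16 tested cyclins D, CDKs and CDK inhibitors, 4 were called higher in thymocytes and 5 higher in large pre-B cells (median -0.53), shares near those of all genes (26.0% and 27.2%), and 3 of the 9 calls were kept in every fit without 1 library. Ccnd3, the D-type cyclin on which both precursors depend, was the highest cyclin D in every library at 312 and 245 FPKM in thymocytes and 500 and 330 in large pre-B cells, a small difference (-0.55, SE 0.16, limma adjusted p = 0.032) that was not called in any fit without 1 library (limma adjusted p 0.066 to 0.20). Ccnd2, a second D-type cyclin, was at 3.24 and 3.83 FPKM in thymocytes and at 18.9 and 37.1 in large pre-B cells (-2.60, SE 0.37, limma adjusted p = 0.0025), and its call was kept in all 4 of these fits. The CDK inhibitor Cdkn1b (p27) was at 146 and 147 FPKM in dividing thymocytes against 48.9 and 62.8, and Cdkn1c (p57) at 7.78 and 9.34 against 0.979 and 1.38. Cdkn1a (p21) was at 71.8 and 116 against 19.0 and 24.1, a call lost without either control or CKO-labelled thymocytes (limma adjusted p 0.10 and 0.0501) and without the CKO-labelled large pre-B cells (0.13). All 3 genes of the Cip/Kip family were thus higher in both thymocyte libraries than in both large pre-B libraries, as were 39.2% of all genes tested. The inhibitor of CDK4 and CDK6 Cdkn2d (p19) stood slightly the other way at 91.7 and 84.6 against 117 and 104 FPKM, and its call was lost in every fit without 1 library (limma adjusted p 0.096 to 0.18).

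Of 41 genes of DNA licensing, replication and nucleotide supply, 2 were called, Cdt1 and Orc1, both higher in thymocytes and both kept in every fit without 1 library. Cdt1, the loader of the replicative helicase, was at 124 and 154 FPKM against 50.9 and 73.0 (1.17, SE 0.17, limma adjusted p = 0.0028). Orc1, a subunit of the origin recognition complex, was at 21.4 and 25.4 against 6.48 and 8.86 (1.50, SE 0.21, limma adjusted p = 0.0023). Cdc6, the third licensing factor of this group, was at 58.3 and 61.7 against 21.3 and 24.3 FPKM. It was without overlap, like 39.2% of all genes tested in that direction, but its SE of 0.90 left it uncalled. The helicase subunits themselves were nearly level: Mcm7 stood at 200 and 245 FPKM in thymocytes and 204 and 241 in large pre-B cells, and Mcm5 at 131 and 168 against 141 and 165. The median of the list was 0.06.

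Genes of mitosis tended toward large pre-B cells. Of 42 members, 33 were lower in thymocytes in both genotypes, against 47.5% of all genes tested, and the median was -0.41. The mitotic kinase Plk1 was at 41.8 and 36.1 FPKM in thymocytes and 111 and 106 in large pre-B cells (-1.46, SE 0.35, limma adjusted p = 0.016), and the phosphatase Cdc25b, which activates CDK1, at 68.9 and 75.1 against 185 and 155 (-1.23, SE 0.21, limma adjusted p = 0.0051). With Aurka, at 34.9 and 32.1 against 60.5 and 66.9 FPKM, these were the 3 called members, and only Cdc25b was called in every fit without 1 library. Without the CKO-labelled thymocytes the adjusted p was 0.11 for Plk1 and 0.17 for Aurka, and without the control large pre-B cells 0.12 and 0.16. The call of Aurka was also lost without the CKO-labelled large pre-B cells (limma adjusted p 0.083). Ccnb1 was at 75.7 and 62.5 against 153 and 163 FPKM and was not called. The proliferation marker Mki67 was level, at 139 and 198 FPKM against 158 and 187 (-0.05, SE 0.92).

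The spread in the model is estimated over all 8 libraries, from how far the genotype difference of a gene varied among the 4 populations. Of the 83 replication and mitosis genes, 72 were 2-fold or more higher in the CKO-labelled library of quiescent thymocytes and 45 in that of small pre-B cells, against 0 in cycling thymocytes and 0 in large pre-B cells, and none was 2-fold lower in any of the 4 populations. Mki67 was at 1.70 and 48.3 FPKM in quiescent thymocytes and at 35.0 and 75.5 in small pre-B cells. When limma was run on the 4 dividing libraries alone, with 1 residual degree of freedom, 3174 genes (29.7%) were called higher in thymocytes and 3442 (32.3%) higher in large pre-B cells, and 23 of the 42 mitosis genes were called higher in large pre-B cells and none higher in thymocytes. In that fit Plk1 had an limma adjusted p of 0.00024, Ccnb1 of 0.001 and Nuf2 of 0.00065, and 13 of 41 replication genes were called higher in thymocytes and 6 higher in large pre-B cells. Leaving out 1 library from the 8 moved the medians of both lists across 0, because the missing value is then filled by the genotype difference of the other populations. The replication median was -0.39 without the control thymocytes, -0.38 without the CKO-labelled large pre-B cells, 0.50 without the CKO-labelled thymocytes and 0.46 without the control large pre-B cells, and the mitosis median ranged from -0.91 to 0.10 over the same fits.

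**Figure D3:**
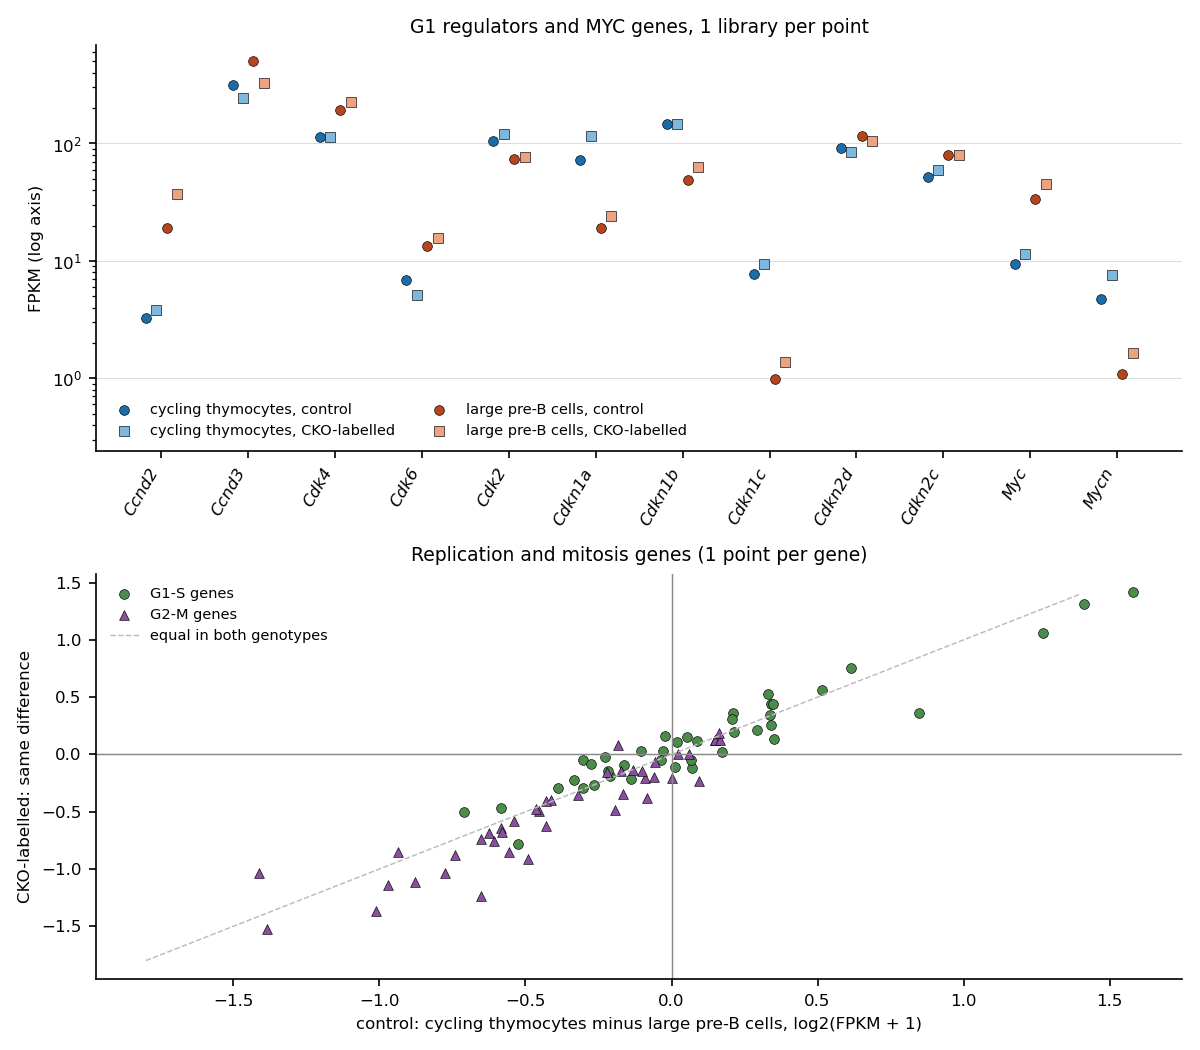
Top, FPKM (log axis) of G1 regulators and MYC genes with 1 point per library. Bottom, the lineage difference on the log2(FPKM + 1) scale in control libraries (x axis) and in CKO-labelled libraries (y axis) for 41 replication genes (circles) and 42 mitosis genes (triangles), of which 33 mitosis genes lie below 0 on both axes.

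Of 18 tested genes of the MYC network and the nucleolus, 5 were called higher in thymocytes and 4 higher in large pre-B cells (median 0.00). These shares were near the 26.0% and 27.2% of all genes. Myc itself was at 9.32 and 11.4 FPKM in thymocytes and 33.6 and 45.4 in large pre-B cells (-1.82, SE 0.32, limma adjusted p = 0.0053), while Mycn was at 4.77 and 7.57 against 1.08 and 1.66 (1.58, SE 0.22, limma adjusted p = 0.0022). Proteins that compete with MYC for MAX were all on the thymocyte side where called: Mxd1 at 38.4 and 46.5 against 3.59 and 3.80 FPKM, Mxd4 at 74.4 and 119 against 25.4 and 38.3, Mxi1 at 27.6 and 31.3 against 9.47 and 10.7, and Mnt at 24.6 and 28.1 against 7.51 and 7.34. Max was level at 44.7 and 45.7 against 42.0 and 45.6. Of 10 nucleolar genes 3 were called, Npm1, Fbl and Dkc1, all higher in large pre-B cells, and Npm1 was at 449 and 365 against 647 and 719 FPKM. The calls of Npm1 and Dkc1 were lost without the CKO-labelled large pre-B cells (limma adjusted p 0.064 and 0.051).

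Cholesterol synthesis was the most one-sided metabolic group, with 15 of 22 members called higher in thymocytes, none higher in large pre-B cells and a median of 1.18. Insig1, a sterol-responsive brake on the pathway, was at 136 and 147 FPKM against 10.9 and 13.0 (3.46, SE 0.23, limma adjusted p = 0.00019). Cyp51, the sterol demethylase, was at 48.2 and 33.0 against 6.04 and 8.81, and the transcription factor gene Srebf2 at 103 and 67.8 against 25.5 and 35.1. In most enzymes the control thymocytes were the highest library and the genotypes were closer together in large pre-B cells. Of the 15 calls, 8 were kept in every fit without 1 library, among them Insig1, Cyp51 and Srebf2. Fdps had an limma adjusted p of 0.05 and was lost in all but 1 of those fits.

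Glycolytic genes were mixed. Slc2a1, the main glucose transporter of lymphocytes, was at 33.9 and 29.5 FPKM against 6.58 and 6.61 (2.102, SE 0.11, limma adjusted p = 9.2e-05), and the hexokinases Hk1 and Hk2 were also higher in thymocytes, at 27.0 and 30.3 against 12.3 and 15.1 and at 8.59 and 6.88 against 3.22 and 2.79. Further down the pathway Pgam1 was higher in large pre-B cells at 119 and 97.7 against 57.6 and 47.6. Ldhb, a lactate dehydrogenase subunit, was at 120 and 37.7 FPKM in thymocytes against 2.36 and 0.313 (5.03, SE 0.44, limma adjusted p = 0.00048), whereas Ldha was level at 275 and 188 against 256 and 251. Of 22 members 7 were called higher in thymocytes and 2 higher in large pre-B cells, beside 26.0% and 27.2% of all genes. In every fit without 1 library, 7 of these 9 calls were kept.

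MHC class I genes were lower in thymocytes, with 10 of 14 members called higher in large pre-B cells and 1 higher in thymocytes (median -0.96). H2-K1 was at 64.0 and 105 FPKM in thymocytes and 416 and 578 in large pre-B cells (-2.56, SE 0.18, limma adjusted p = 0.00023), H2-D1 at 89.6 and 148 against 432 and 545, and B2m, their common light chain, at 309 and 390 against 1252 and 1493. Nlrc5, the transactivator of these genes, was at 0.789 and 0.964 against 11.8 and 17.8. The exception was Tap2, a subunit of the peptide transporter, at 92.6 and 117 FPKM in thymocytes against 28.3 and 33.3, while its partner Tap1 was at 41.1 and 52.9 against 61.4 and 83.6. Class I genes are close copies of each other, and reads may have been divided among them in ways the files do not show. In class II, 9 of 10 members were called higher in large pre-B cells. Cd74, the invariant chain, was at 5.43 and 5.12 FPKM against 135 and 58.5, and H2-Aa at 2.56 and 3.70 against 91.7 and 33.8. H2-Ob, a chaperone chain restricted largely to B lineage cells, was at 0.529 and 0.329 against 25.4 and 24.9 (-4.20, SE 0.12). The control large pre-B library held more Cd74 and H2-Aa than the CKO-labelled one, and it also held more of the monocyte markers (190 against 73.5 FPKM), while H2-Ob was level between the 2; the part of monocytes in the class II values was not tested.

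In the BCL2 family, which controls apoptosis, 6 of 13 tested members were called higher in thymocytes and 2 higher in large pre-B cells (median 0.20). Over all genes the shares were 26.0% and 27.2%. In every fit without 1 library, 6 of the 8 calls were kept. The largest differences were those of BH3-only genes, which trigger cell death. Bcl2l11 (BIM) was at 185 and 233 FPKM in thymocytes and 8.40 and 10.0 in large pre-B cells (4.36, SE 0.11, limma adjusted p = 7.8e-06), Bbc3 (PUMA) at 23.8 and 97.2 against 0.842 and 3.21, and Pmaip1 (NOXA) at 44.5 and 63.9 against 2.92 and 5.67. In Bbc3 and Pmaip1 the CKO-labelled library was the higher one in both lineages. Among survival genes Mcl1 was higher in thymocytes at 168 and 219 against 75.5 and 81.8 FPKM, Bcl2l1 was level at 51.1 and 43.4 against 44.9 and 39.8, and Bcl2 was low in all 4 libraries at 2.12 to 3.35. The effector Bak1 was called higher in large pre-B cells at 24.4 and 23.7 against 36.9 and 44.3 FPKM, as was the survival gene Bcl2l2 at low levels, and Bax, Bid and Bad had no call.

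The NR4A receptors, which are induced by antigen receptor signals, were among the largest differences of all. Nr4a1 was at 705 and 1036 FPKM in thymocytes and 3.97 and 3.38 in large pre-B cells (7.52, SE 0.49, limma adjusted p = 0.00018), Nr4a3 at 109 and 106 against 0.135 and 0.0744, and Nr4a2 at 63.2 and 36.9 against 0.690 and 0.463. Of 10 other early response genes, 8 were called higher in thymocytes. Junb and Fos differed less than the NR4A genes, and the part of receptor signals in these values was not tested. Junb was at 207 and 257 against 39.0 and 32.2 FPKM, and Fos, at 65.7 and 132 against 60.4 and 42.1, was not called. Cd5, whose level tracks receptor signal strength, was at 45.8 and 45.3 against 0.584 and 0.438, and Cd69 was not called at 8.98 and 15.9 against 13.6 and 17.1. Of 19 members, 15 were called higher in thymocytes and none higher in large pre-B cells (median 2.43), and 10 of the 15 calls were kept in every fit without 1 library.

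**Figure D4:**
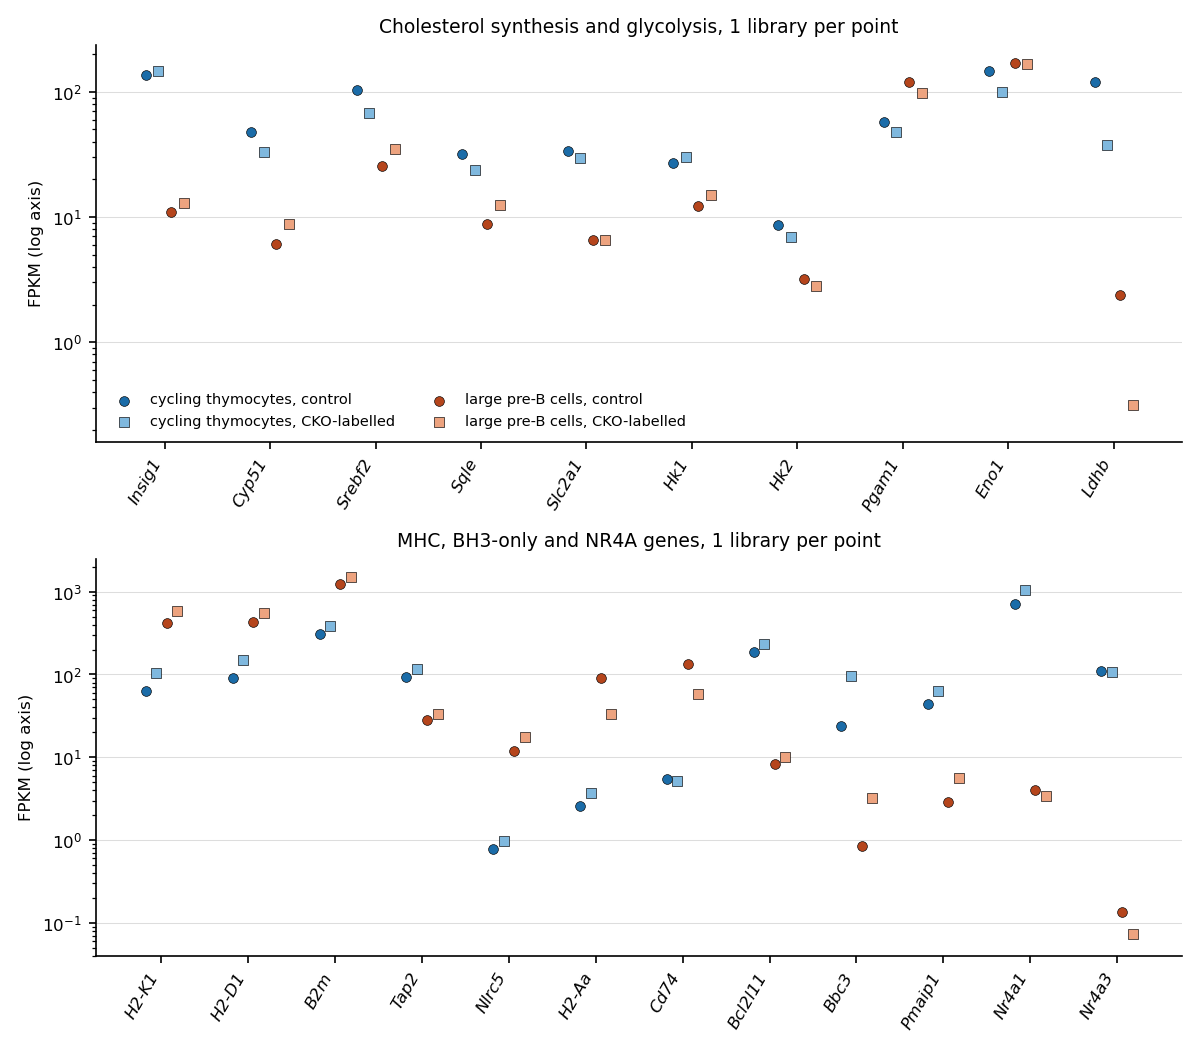
FPKM (log axis) of cholesterol and glycolysis genes (top) and of MHC, BH3-only and NR4A genes (bottom), with 1 point per library. Insig1 (136 and 147 FPKM) and Nr4a1 (705 and 1036 FPKM) are high in thymocytes, and B2m (1252 and 1493 FPKM) is high in large pre-B cells.

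Of 18 tested chemokine receptor, egress and adhesion genes, 6 were called higher in thymocytes and 7 higher in large pre-B cells (median -0.69), beside 26.0% and 27.2% of all genes. In every fit without 1 library, 7 of the 13 calls were kept. Ccr9, the receptor for a thymic and gut chemokine, was at 65.0 and 60.1 FPKM in thymocytes against 1.64 and 0.336 (5.08, SE 0.64, limma adjusted p = 0.0016). The marrow retention receptor Cxcr4 was high in both at 110 and 119 against 222 and 181, with a call lost without the control thymocytes (limma adjusted p 0.067) and without the control large pre-B cells (0.083). Cd44, an adhesion receptor of early progenitors and activated cells, was at 4.40 and 5.76 against 32.8 and 22.6, and the integrin chain Itga4 at 18.5 and 15.2 against 44.2 and 39.2, while Itgal was at 65.9 and 58.5 against 10.4 and 16.1. Among chromatin regulators, 3 of 17 were called in each direction, below the shares of all genes. Kdm6b, a histone H3 lysine demethylase, was at 47.9 and 87.0 FPKM in thymocytes against 4.40 and 4.03 (3.65, SE 0.27, limma adjusted p = 0.00026), and Smarca4, the BRG1 ATPase of a chromatin remodelling complex, was at 56.2 and 50.8 against 215 and 213 (-1.98, SE 0.13, limma adjusted p = 0.00019). These 2 calls were kept in every fit without 1 library and the other 4 of the list were not. Of the Polycomb genes, Ezh1 was called higher in large pre-B cells at 2.72 and 2.86 against 5.96 and 5.28 FPKM, and Ezh2, Suz12 and Eed had no call. Of the 8 GIMAP GTPases, lymphocyte survival proteins, 1 was called higher in thymocytes and 2 higher in large pre-B cells (median -0.80), both below the shares of all genes. The call toward thymocytes alone was kept in every fit without 1 library.

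**Figure D5:**
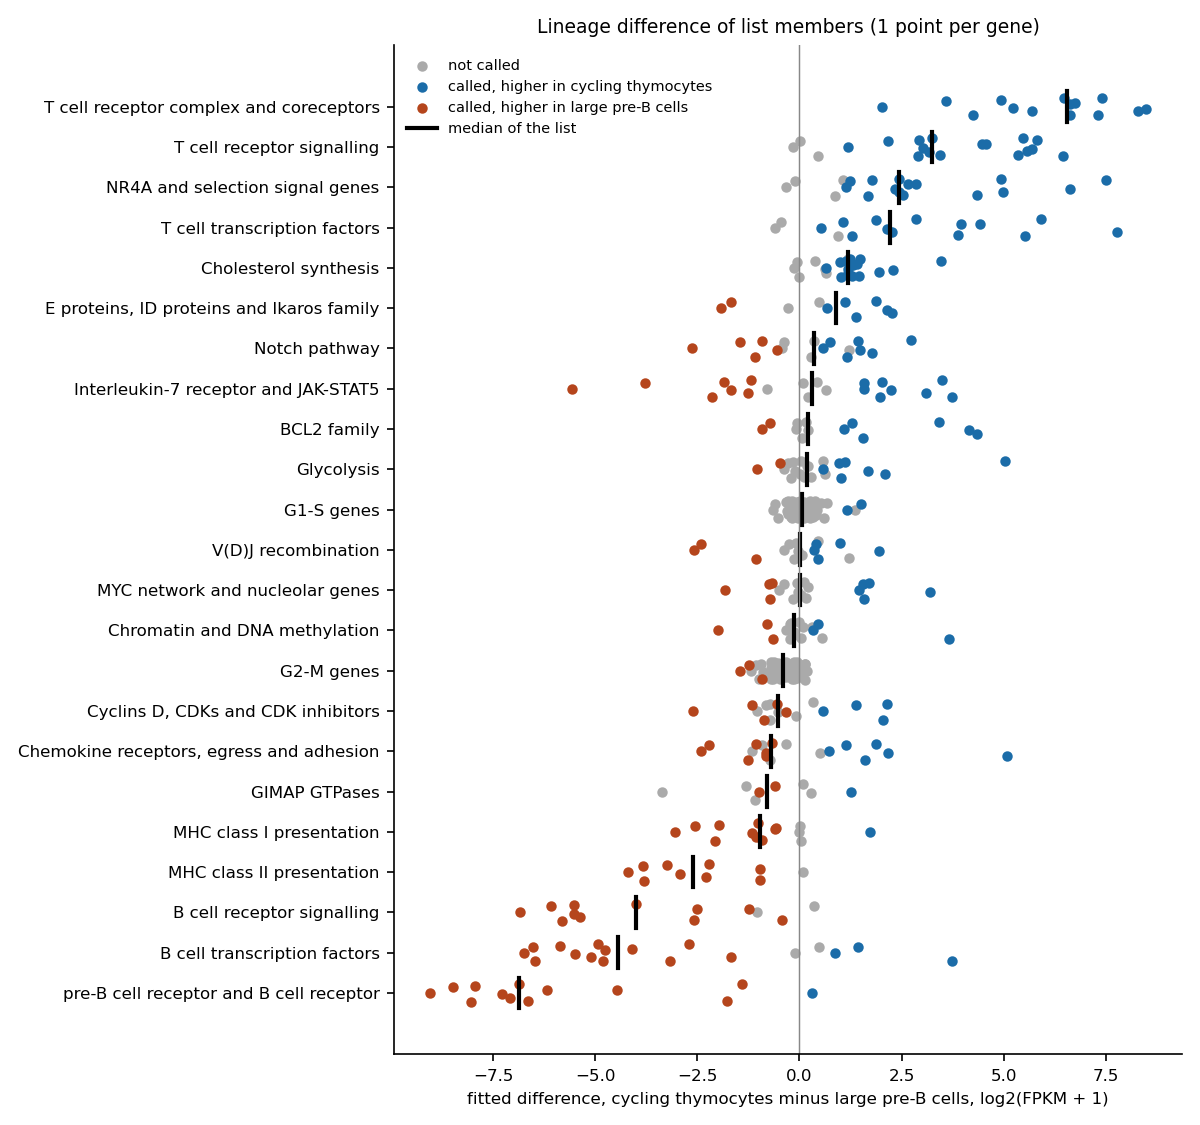
Fitted lineage difference on the log2(FPKM + 1) scale for each tested member of 23 gene lists, with 1 point per gene, blue where called higher in cycling thymocytes, red-brown where called higher in large pre-B cells, grey where not called, and a bar at the list median. Medians run from -6.87 for the pre-B cell receptor to 6.55 for the T cell receptor complex, with replication genes at 0.06.

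Genes outside the lists appeared among the largest differences of both lineages. Toward thymocytes these were Syt13, a synaptotagmin, at 120 and 136 FPKM against 0.0943 and 0.0537, and H2-Q2, a nonclassical class I gene with close copies, at 93.8 and 106 against 0 and 0.0889. Toward large pre-B cells they were Tifa, an adaptor of NF-kappaB signalling, at 1.42 and 0.114 against 261 and 196 FPKM, the phosphodiesterase gene Pde2a at 0.352 and 0.739 against 176 and 246, and the myosin light chain gene Myl4 at 0.323 and 0.460 against 224 and 110. The other 3 encode granule proteins of immature granulocytes: Mpo was at 365 and 159 FPKM in large pre-B cells, Elane at 251 and 115 and Prtn3 at 183 and 67.1, and all were at 0.106 FPKM or below in thymocytes. They are markers on the granulocyte list, and whether other cells in the sort carry them was not tested.

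Most 2-fold lineage differences of dividing cells were also present between quiescent thymocytes and small pre-B cells, called resting cells here. Their CKO-labelled libraries were higher in cell cycle transcripts than control. Of 83 replication and mitosis genes, 72 were 2-fold or more higher in CKO-labelled quiescent thymocytes and 45 in CKO-labelled small pre-B cells. Of the 2098 genes that differed by at least 2-fold in both genotypes, 99.1% had the same sign of the mean difference between quiescent thymocytes and small pre-B cells and 77.5% were at least 2-fold apart there in both genotypes. These genes were selected for a large difference, and the same shares over all genes tested are not given. Across all 10671 genes, which are not independent replicates, the lineage differences of dividing and resting cells had a Pearson r of 0.899. The test of the difference itself called 1 gene of 10671 (0.00937%) with limma, and 2402 had an unadjusted p under 0.05. That gene was Igj, which encodes the joining chain of secreted IgM and IgA. Igj stood at 65.1 and 130 FPKM in large pre-B cells and at 0.197 and 0.396 in cycling thymocytes, against 0.101 and 0.355 in small pre-B cells and 0.113 and 0.112 in quiescent thymocytes (difference of differences -6.04, SE 0.35, limma adjusted p = 0.031). In simulated data with 200 changed genes the same contrast recovered 0% of genes changed by 1 and 98.5% of genes changed by 2 on the log2 scale. Larger differences were still left uncalled in the measured data. The granulocyte markers Mpo at -5.27 and Elane at -4.76 both had a limma adjusted p of 0.051, and F13a1 at -3.515 had 0.053. The simulation therefore does not give the size of difference that could be detected with these libraries. The number of calls depended on the settings. None was made below 0 with a pseudocount of 0.1, without the filter on low values, or without the CKO-labelled thymocytes, while 66 genes above 0 and 94 below were called with a pseudocount of 5, and 107 and 146 with all 10 libraries fitted.

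Within each dividing population the CKO-labelled and control libraries were compared by size alone, since each was 1 library, and no test was run. In cycling thymocytes 7755 genes reached 5 FPKM in 1 or both libraries. Among them the CKO-labelled value exceeded the control value 2-fold or more in 29 genes (0.374%), and the reverse held for 45 (0.580%). Of 7920 such genes in large pre-B cells, 69 (0.871%) stood 2-fold or more above control and 77 (0.972%) below. With a pseudocount of 5 the numbers were 17 and 20 in thymocytes and 33 and 33 in large pre-B cells. Of 7013 genes that reached 5 FPKM in both lineages, 5 were 2-fold or more above control in both and 2 were below in both, and those of them that the ranking would not skip are named here, a choice made after their values were seen. The higher ones were Tsc22d1, a leucine zipper gene, at 58.7 and 199 FPKM in thymocytes and 14.4 and 42.3 in large pre-B cells, Lars2, a mitochondrial leucyl-tRNA synthetase, at 25.8 and 142 and at 44.4 and 98.0, and the class I gene H2-Q7 at 3.60 and 10.6 and at 54.0 and 113. Gsn, which encodes the actin-severing protein gelsolin, was lower in both CKO-labelled libraries at 32.2 and 11.8 and at 91.0 and 43.4, as was F13a1, a coagulation factor subunit, at 14.3 and 6.02 and at 29.9 and 10.6. Not all of these held in the other lymphoid libraries. Lars2 went the other way in quiescent thymocytes, at 303.5 and 128 FPKM, and was at 29.2 and 32.8 in small pre-B cells. Gsn went the other way in small pre-B cells, at 25.35 and 37.3 FPKM. Tsc22d1, H2-Q7 and F13a1 kept their direction in both quiescent thymocytes and small pre-B cells.

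Other genes had a ratio of CKO-labelled to control that differed between lineages. Gimap4, a GTPase of lymphocyte survival, was at 2.11 and 0.447 FPKM in thymocytes and at 8.02 and 52.7 in large pre-B cells, the largest such gap toward large pre-B cells. Emp1, an epithelial membrane protein gene, was at 26.7 and 19.6 against 11.4 and 49.8 FPKM, and H1fx, a linker histone gene, at 9.15 and 4.98 against 10.2 and 32.3. In the other direction Gadd45g, a stress-inducible gene, was at 12.3 and 56.9 FPKM in thymocytes and 10.5 and 11.4 in large pre-B cells, and Olig3 at 4.91 and 24.0 FPKM in thymocytes and listed at 0 in both large pre-B libraries. Mgst1, a glutathione transferase gene, was at 40.0 and 8.22 FPKM in large pre-B cells, and the granulocyte markers there summed to 1116 and 546. In small pre-B cells Mgst1 was at 107 and 14.4 FPKM, while the granulocyte markers Mpo and S100a8 were at 6.48 and 4.57 and at 272 and 221. Gzmb, a cytotoxic granule gene, was at 0.888 and 6.57 in large pre-B cells, and the 10 cytotoxic and NK markers, of which it is 1, summed to 101 and 142 there. Gzma alone made up 9.95 and 41.6 FPKM of that sum, and the 9 markers without it summed to 91.5 and 100.8. Among the others Klrd1 was at 4.74 and 11.02 and Ncr1 at 3.09 and 6.60, whereas Nkg7 was at 26.0 and 27.5, Ccl5 at 11.5 and 12.4 and Fcer1g at 39.9 and 24.6. The part of such cells in these 2 ratios was not tested. None of these ratios has a replicate check.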

How the data were processed

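RNA sequencing was measured in 10 libraries, each 1 population of 1 genotype from a pool of 2 mice, and 4 of them were compared here. The authors deposited 1 value per gene and library, read here as FPKM from the files' form, since no header names the unit. The submitters' processing notes list TopHat2 2.0.8b, Cuffdiff 2.1.1 and mm10, without saying which step each served. FPKM hold no counts, so the depth of each library is unknown, and a value of exactly 0 can be a failed estimate. Each file held 23179 rows. After 201 exact repeats were dropped, 22923 gene symbols remained.

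The 10671 genes that reached 1 FPKM in any 2 of the 4 dividing libraries were tested with limma 3.58.1 in R 4.3.3 on log2(FPKM + 1), with an intensity trend, over 8 lymphoid libraries with 4 populations and genotype as terms, which leaves 3 residual degrees of freedom. Genotype is the block here, since by the series' design text all populations of a genotype came from 1 pool. The residual is therefore the variation of the genotype difference among populations and not a spread among replicates. P-values were adjusted by Benjamini and Hochberg. CKO-labelled and control libraries were compared by fold alone, for genes with at least 5 FPKM. The text names the 15 largest differences in each direction that were called and 2-fold in both genotypes, members of 23 gene lists, and the 8 largest gaps in CKO ratio each way. Genes at 0 in 1 library of a population and at 10 FPKM or more in its other library were skipped in the ranking (18 genes). Predicted genes, receptor segments, small RNA genes and rows naming several genes were skipped too. The comparison and the lists were chosen with earlier results of these data known. In simulated data with 200 changed genes the lineage contrast recovered 81% of genes changed by 1 and 98% of those changed by 2 on the log2 scale. The changed genes were drawn from the more highly expressed ones, and the simulated noise was independent between libraries. These shares therefore need not hold for genes near the filter or for the measured data, in which far more genes were called. Sequences are from RefSeq (GRCm38.p6) and gene positions from GENCODE on the same build. Shares of motifs in the called gene sets were not compared, because fewer than 80% of those genes had a promoter in the table. Alternatives were the pseudocount, the filter, the scaling, the libraries fitted, the block and leaving out each library. Some genes that the rule would name are not reported here.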

Additional observations from a re-analysis of the deposited data

How the results depend on the processing

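Leaving out 1 library at a time gave 1676 to 1994 genes called higher in thymocytes and 1524 to 2029 called higher in large pre-B cells by limma. Requiring a fitted difference of at least 2-fold as well left 1258 and 1212. The numbers of genes 2-fold apart in both genotypes were 571 and 429 with a pseudocount of 5 and 342 and 323 at 4-fold, and 676 genes were higher in large pre-B cells with a filter of at least 5 FPKM. The contrast of dividing with resting cells, with 0 genes called above 0 and 1 below, was the least settled: calls above and below 0 numbered 66 and 94 with a pseudocount of 5, 1 and 12 with a filter of at least 5 FPKM, 107 and 146 with all 10 libraries, 27 and 52 without genes listed at 0 in 1 library of a population, and 9 and 22 without an intensity trend. No gene was called below 0 with a pseudocount of 0.1 or with no filter (0 in each), and 0 to 3 were without 1 library, where none were called above 0. The cause was not tested. Of the CKO-labelled against control ratios, a pseudocount of 5 left 17 higher and 20 lower in thymocytes and 33 and 33 in large pre-B cells. Without the genotype block 2499 and 2597 genes were called between lineages, and 0 and 1 in the contrast with resting cells. Each group held 1 library, so genotype was the only block the labels allowed. With no counts, the depth that limits low values cannot be given.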
